A study of Mus musculus with 12 samples.

Results

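The heat shock genes described here are 10 of the 22557 genes in a table of RNA levels from 12 mouse livers, taken by gene symbol: Hspa1a, Hspa1b, Hspa8, Hsph1, Dnajb1, Hsp90aa1, Hspb1 and Bag3, whose proteins work mainly in the cytosol and nucleus (8 genes), and Hspd1 and Hspe1, whose proteins work in mitochondria (2 genes). All 10 were in the table and all 10 passed the filter on low values, which 17380 genes passed. The livers came from age-matched female mice in 4 groups of 3: Mtdh knockout (KO) mice bearing a Py8119 mammary tumour, wild-type (WT) mice bearing that tumour, KO mice with no tumour and WT mice with no tumour. Mtdh, the gene removed in the KO mice, encodes metadherin, a membrane and RNA-binding protein studied in cancer. The Py8119 cells, which grow as tumours in mice, are an established line of mouse mammary cancer. Replicates were different mice. The whole frozen liver was ground to powder and its total RNA was sequenced after removal of ribosomal RNA, so each value sums all cells of the organ, and fewer cells of a type cannot be told apart from less RNA per cell. The tissue or cell type in which Mtdh was removed, the strain and the site, size and age of the tumours are not stated in the labels used here.

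Heat shock proteins are chaperones: they bind proteins that are unfolded or newly made and help them fold, or pass them on for breakdown. Under heat or other protein damage, the transcription factor HSF1 is released from the chaperones that hold it, forms trimers and binds heat shock elements, which are inverted repeats of the unit GAA, in the promoters of these genes. In the cytosol, the HSP70 proteins take hold of a client with the help of DNAJ proteins and release it with the help of exchange factors. HSP90 acts later in folding, and small heat shock proteins keep unfolded clients soluble. In the mitochondrial matrix, HSP60 and HSP10 form a closed folding chamber. Hspa8, Hspd1, Hspe1 and Hsp90aa1 are transcribed in unstressed liver, whereas Hspa1a and Hspa1b are the classical genes induced by stress.

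The promoters of the genes are shown first because HSF1 acts through elements in them. RefSeq windows of 300 bases (250 before and 50 after a transcription start; build GRCm38.p6) were at hand for 8 of the 10 genes, in 11 windows. They were searched for 2 units of the element (GAANNTTC or TTCNNGAA) and for 3 units (TTCNNGAANNTTC or GAANNTTCNNGAA). Each pattern is its own reverse complement or the complement of its partner, so both strands were covered, and every match of 3 units also holds matches of 2. A match of 2 units was found in 8 of the 11 windows, and in 15.0% of the 32840 windows of other genes. By gene, 7 of the 8 had such a window, as had 17.0% of 27017 other genes. A match of 3 units was found in 4 of the 11 windows (0.591% of the other windows). They belong to 3 of the 8 genes (0.651% of other genes), namely Hsph1, Hspd1 and Hspe1. The 2 Hsph1 windows overlap and hold the same match, and the Hspd1 and Hspe1 windows share theirs. These counts of windows and genes are thus higher than the number of separate sequences. A match is a description of the letters and not a binding site. The Hspe1 window lies on the plus strand at chr1:55087898-55088197. The Hspd1 window that holds the match runs the other way and overlaps it by 285 bases, so the same 18-base run, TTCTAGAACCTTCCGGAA on the Hspe1 strand at 89 to 72 bases before the Hspe1 start, lies in both. The Hsph1 window printed here lies on the minus strand at chr5:149636266-149636565, with its matches between 54 bases before and 27 bases after the start. The other Hsph1 window lies at chr5:149636287-149636586. The Hspa1a window lies on the minus strand at chr17:34972107-34972406, with 1 match of 2 units, and differs from the Hspa1b window, of the same length, at 4 of 300 bases. Capitals mark the matches.
Hspe1: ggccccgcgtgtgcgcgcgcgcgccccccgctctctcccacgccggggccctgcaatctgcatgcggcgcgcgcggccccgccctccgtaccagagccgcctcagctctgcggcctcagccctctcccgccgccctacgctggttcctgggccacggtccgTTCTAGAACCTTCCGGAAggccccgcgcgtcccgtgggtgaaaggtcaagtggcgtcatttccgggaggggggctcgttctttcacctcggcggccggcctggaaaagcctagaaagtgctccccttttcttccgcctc
Hsph1: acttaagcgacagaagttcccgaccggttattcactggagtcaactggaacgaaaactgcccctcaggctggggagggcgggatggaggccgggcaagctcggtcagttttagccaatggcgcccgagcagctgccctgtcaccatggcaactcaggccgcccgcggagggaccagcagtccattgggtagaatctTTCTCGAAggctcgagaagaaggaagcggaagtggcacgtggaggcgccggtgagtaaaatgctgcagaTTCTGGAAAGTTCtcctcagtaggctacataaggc
Hspa1a: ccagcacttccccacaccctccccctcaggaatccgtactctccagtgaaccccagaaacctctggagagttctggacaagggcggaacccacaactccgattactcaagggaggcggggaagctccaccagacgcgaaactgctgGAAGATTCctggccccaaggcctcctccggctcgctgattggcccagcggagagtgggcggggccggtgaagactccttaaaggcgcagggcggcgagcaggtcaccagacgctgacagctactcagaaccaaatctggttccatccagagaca

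Several of these genes have near-identical copies, which limits how reads can be divided between them. The coding sequences of Hspa1a and Hspa1b (GENCODE release M21, GRCm38) differ at 8 of 1923 aligned bases, an identity of 99.6%. Hspb1 and its pseudogene Hsp25-ps1 on chromosome 13 differ at 4 of 627 aligned bases, an identity of 99.4%. The stretches below, coding bases 1357 to 1416 of the first pair and 550 to 609 of the second, are those where the pairs differ most; capitals mark the differing bases.
Hspa1a: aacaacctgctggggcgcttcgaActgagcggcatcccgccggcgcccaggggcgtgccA
Hspa1b: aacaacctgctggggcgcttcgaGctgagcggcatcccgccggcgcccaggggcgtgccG
Hspb1: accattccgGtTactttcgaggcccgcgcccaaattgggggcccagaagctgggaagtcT
Hsp25-ps1: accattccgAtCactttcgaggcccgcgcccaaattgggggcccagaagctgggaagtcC

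The deposited values are estimated reads per gene divided by a size factor per library, here called normalized signal. The estimated depth was 12700000 reads in KO tumour-bearing replicate 1 and 25700000 to 43000000 reads in the other 11 libraries. KO tumour-bearing replicate 1 also listed fewer genes above 0 (14899, against 17772 to 20365), and KO tumour-free replicate 3 had the highest shares of small nucleolar RNA (4.84% of signal) and small nuclear RNA (5.32%). Without both libraries, 0 of the 10 heat shock genes were called in any comparison. Mtdh was at 323 to 1060 in KO livers and at 3950 to 5700 in WT livers. The hepatocyte gene Alb held 9.82% to 11.2% of the signal in WT tumour-bearing and 7.16% to 7.55% in WT tumour-free livers. In KO it held 8.58% to 12.3% with a tumour and 6.12% to 9.17% without. Of 8 listed hepatocyte markers, 6 were positive for the tumour in WT and 0 were called (0.679% of all genes). In KO 6 were positive and 0 called (0.0%). The summed level of 10 neutrophil markers was 300 to 575 in WT tumour-bearing and 15.8 to 90.2 in WT tumour-free livers, and 74.7 to 219 in KO tumour-bearing and 27.6 to 124 in KO tumour-free livers. Of these markers 6 were tested and 0 called in either tumour effect (0.679% of all genes in WT, 0.0% in KO). In WT all 6 were higher with a tumour, 5 of them at a limma unadjusted p under 0.05 (8.67% of all genes). In KO 3 of the 6 were higher, and 1 of the 6 reached that limit (12.7%). On the log2 scale their median tumour effect was 3.96 in WT and 0.14 in KO. Camp was at 0 in 10 of the 12 livers, Retnlg in 8 and Cxcr2 in 0. Their part in the values below was not tested.

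No heat shock gene changed past the threshold in any comparison. With limma's moderated test on log2(signal + 1), adjusted over all 17380 genes at a threshold of 0.05, 0 of the 10 genes were called in WT tumour-bearing against WT tumour-free livers, where 0.679% of all genes were called. The count was likewise 0 of 10 in KO tumour-bearing against KO tumour-free livers (0.0% of all genes), in KO against WT tumour-free livers (0.00575%) and in KO against WT tumour-bearing livers (0.023%). It was also 0 of 10 for the tumour effect averaged over genotypes (1.06%), for the KO effect averaged over tumour states (0.0115%) and for the genotype by tumour interaction (0.0%), which tests whether the tumour effect differs between KO and WT. These comparisons share groups, so their values are not independent of each other. At an unadjusted p under 0.05, Hsph1 passed in KO against WT tumour-free livers (1 of 10 genes, with 1.93% of all genes) and in the averaged KO effect (1 of 10, with 10.3%), and Hspa8 passed in the averaged tumour effect (1 of 10, with 15.1%). None of the 10 genes passed that limit in the tumour effect in WT (8.67% of all genes), the tumour effect in KO (12.7%), KO against WT with a tumour (14.4%) or the interaction (4.7%). A p that misses the threshold does not show equal levels, and the intervals below give the changes these data allow.

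**Figure D1:**
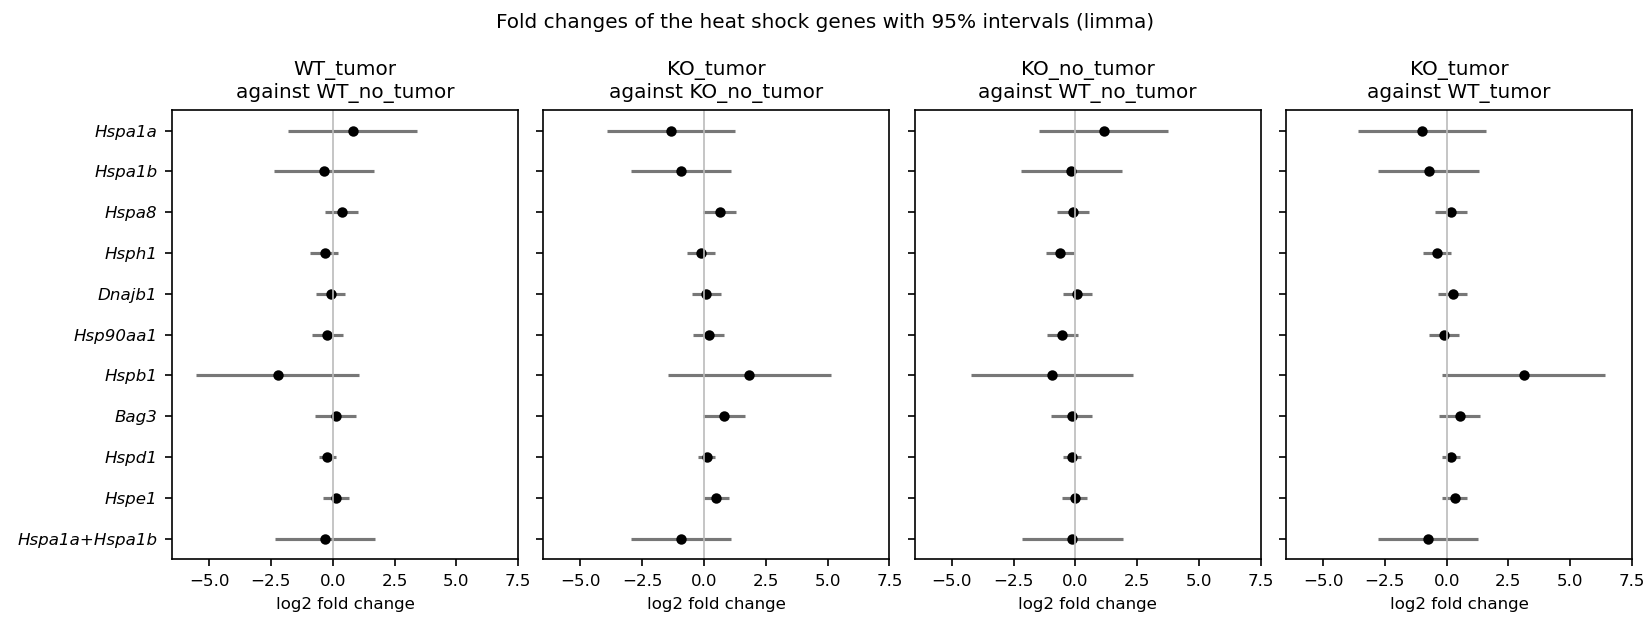
Log2 fold changes of the 10 heat shock genes and of the sum of Hspa1a and Hspa1b (rows) in the 4 pairwise comparisons (panels), from limma on log2(signal + 1). Points are estimates and lines 95% intervals; the lines of Hspa1a, Hspa1b and Hspb1 are the longest, and in these panels the line of Hsph1 in KO against WT tumour-free livers, from -1.18 to -0.05, is the only one that leaves out 0.

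In no comparison did the estimates of all 10 genes share a direction. In WT tumour-bearing against WT tumour-free livers, 4 of 10 had a positive log2 fold change and the median was -0.15, beside a median of 0.00 over all genes. In KO tumour-bearing against KO tumour-free livers, 7 of 10 were positive with a median of 0.15, beside -0.08 over all genes. In KO against WT tumour-free livers, 2 of 10 were positive with a median of -0.14, beside -0.01 over all genes. In KO against WT tumour-bearing livers, 6 of 10 were positive with a median of 0.18, beside -0.12 over all genes. For the interaction, 8 of 10 were positive with a median of 0.30, beside -0.09 over all genes. The averaged KO effect had 7 of 10 positive (median 0.05, beside -0.08). The averaged tumour effect had 4 of 10 positive (median -0.04, beside -0.04). In the 4 pairwise comparisons the SE ranged from 0.17 (Hspd1) to 1.54 (Hspb1) on the log2 scale, so the precision differed widely between the genes.

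Per kilobase of exon, the genes differed widely in level. The highest median over the 12 livers was that of Hspa8 (4129 signal per kb), followed by Hspd1 (2318), Hsp90aa1 (1756) and Hspe1 (1221). A lower tier held Hsph1 (249 signal per kb), Bag3 (179), Dnajb1 (148), Hspa1b (122) and Hspb1 (92.7), and Hspa1a came last (5.27). Hspa8 was above Hspd1 and Hspe1 above Hsph1 in all 12 livers with no overlap of their ranges. All other neighbours in this order overlapped; Hspd1 was above Hsp90aa1 in 9 of 12 livers, and Hspa1b above Hspb1 in 7 of 12. Together the 10 genes held 0.083% to 0.219% of the signal of a library.

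**Figure D2:**
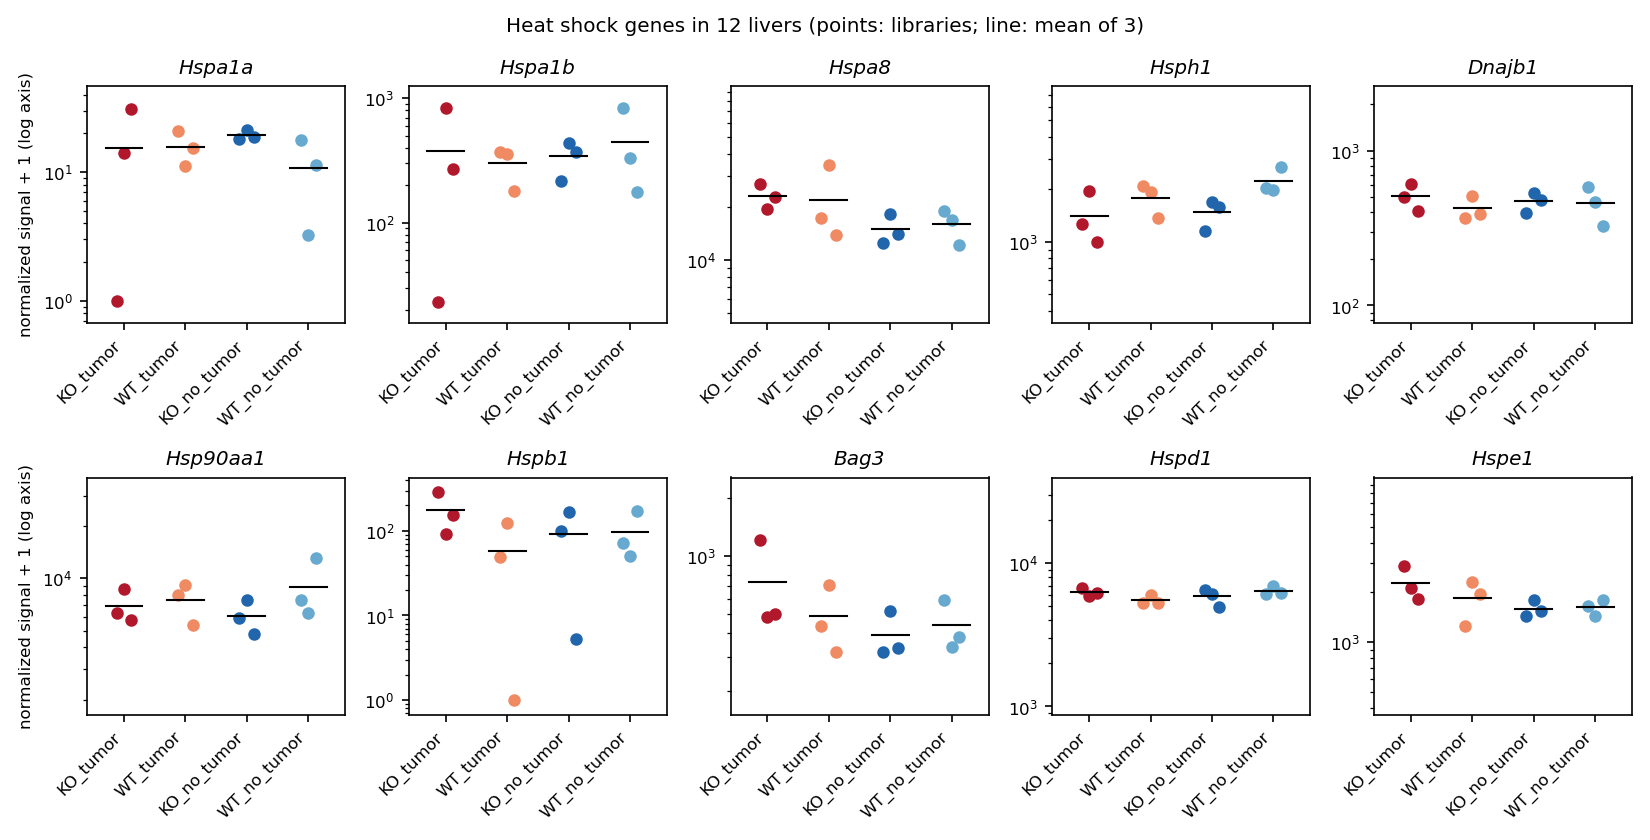
Normalized signal plus 1 (log axis) of each heat shock gene in the 12 livers, by group. Points are libraries and lines the means of 3; the Hspd1 points lie within a 1.4-fold range, whereas Hspa1a and Hspb1 each have a library at 0.

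Hspa8 encodes HSC70, the HSP70 protein present in unstressed cells, which also strips clathrin coats and feeds chaperone-mediated autophagy. It had a normalized signal of 26951, 19359 and 22809 in KO tumour-bearing, 17214, 34743 and 13772 in WT tumour-bearing, 12392, 18307 and 13989 in KO tumour-free, and 18911, 16899 and 12161 in WT tumour-free livers. All 3 KO tumour-bearing livers were above all 3 KO tumour-free livers, while WT tumour-bearing livers spread from within the range of WT tumour-free livers to the highest value of all 12. The mean was 23040 ± 3802 in KO tumour-bearing and 14896 ± 3060 in KO tumour-free livers (SD, n = 3 each). The log2 fold change in KO was 0.64 ± 0.31 (SE; 95% interval -0.03 to 1.30; limma adjusted p = 0.405) and in WT 0.36 ± 0.31 (-0.31 to 1.03; adjusted p = 0.869). The difference between these tumour effects was 0.27 ± 0.44 (limma adjusted p = 0.911). The WT value was -0.03 without WT tumour-bearing replicate 2 and 0.64 without replicate 3. Averaged over genotypes the tumour effect was 0.50 ± 0.22 (unadjusted p = 0.0398, limma adjusted p = 0.306). Without WT tumour-bearing replicate 2 the averaged effect was 0.30, and without WT tumour-bearing replicate 3 it was 0.64.

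Hspe1 was the other gene whose KO tumour-bearing livers lay wholly above the KO tumour-free ones. These were 2 of 10 genes, and 7.34% of all genes had such non-overlapping higher groups. No heat shock gene was wholly lower there, as 9.48% of all genes were. In WT tumour-bearing against WT tumour-free livers 0 of 10 were wholly higher (9.46% of all genes) and 1 of 10, Hspd1, was wholly lower (8.05%). In KO against WT tumour-free livers, 1 gene, Hspa1a, was wholly higher (3.56% of all genes) and 1, Hsph1, wholly lower (4.37%). In KO against WT tumour-bearing livers the ranges overlapped for all 10 genes, where 8.11% of all genes were wholly higher and 9.8% wholly lower.

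Hspa1b and Hspa1a lie near each other on chromosome 17 and encode nearly the same stress-inducible HSP70 protein. Hspa1b had a normalized signal of 22.2, 832 and 268 in KO tumour-bearing, 372, 358 and 178 in WT tumour-bearing, 215, 433 and 372 in KO tumour-free, and 838, 328 and 175 in WT tumour-free livers. The lowest and the highest values differed 37.8-fold, and both tumour states held a library above 800. The lowest value, in KO tumour-bearing replicate 1, stood for an estimated 9.0 reads in the shallowest library. Hspa1a was listed at 0, 13.0 and 30.1 in KO tumour-bearing, 19.7, 10.1 and 14.5 in WT tumour-bearing, 17.0, 20.2 and 17.7 in KO tumour-free, and 16.8, 2.27 and 10.4 in WT tumour-free livers. Its estimated reads did not exceed 39.1 in any library, and its 0 fell in the same liver as the lowest Hspa1b value. Since 66.3% of the 50-base words of the Hspa1a transcripts also occur in other genes' transcripts, and 62.3% of those of Hspa1b, their sum is given as well. The summed signal was 22.2, 845 and 298 in KO tumour-bearing, 391, 368 and 193 in WT tumour-bearing, 232, 454 and 389 in KO tumour-free, and 855, 330 and 186 in WT tumour-free livers. The groups overlapped in all 4 pairwise comparisons. The log2 fold change of the sum was -0.94 ± 0.95 for the tumour in KO (95% interval -2.97 to 1.09; limma adjusted p = 0.658) and -0.31 ± 0.95 for the tumour in WT (-2.34 to 1.73; adjusted p = 0.988), where the interval spans a change to 0.198 times the tumour-free level and a 3.31-fold higher level. For KO against WT it was -0.75 ± 0.95 with a tumour (adjusted p = 0.712) and -0.12 ± 0.95 without (adjusted p = 1). Without KO tumour-bearing replicate 1, the log2 fold change of Hspa1b for the tumour in KO was 0.53 instead of -0.92, and that for KO against WT with a tumour was 0.72 instead of -0.73, both a change of sign with 1 library left out.

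**Figure D3:**
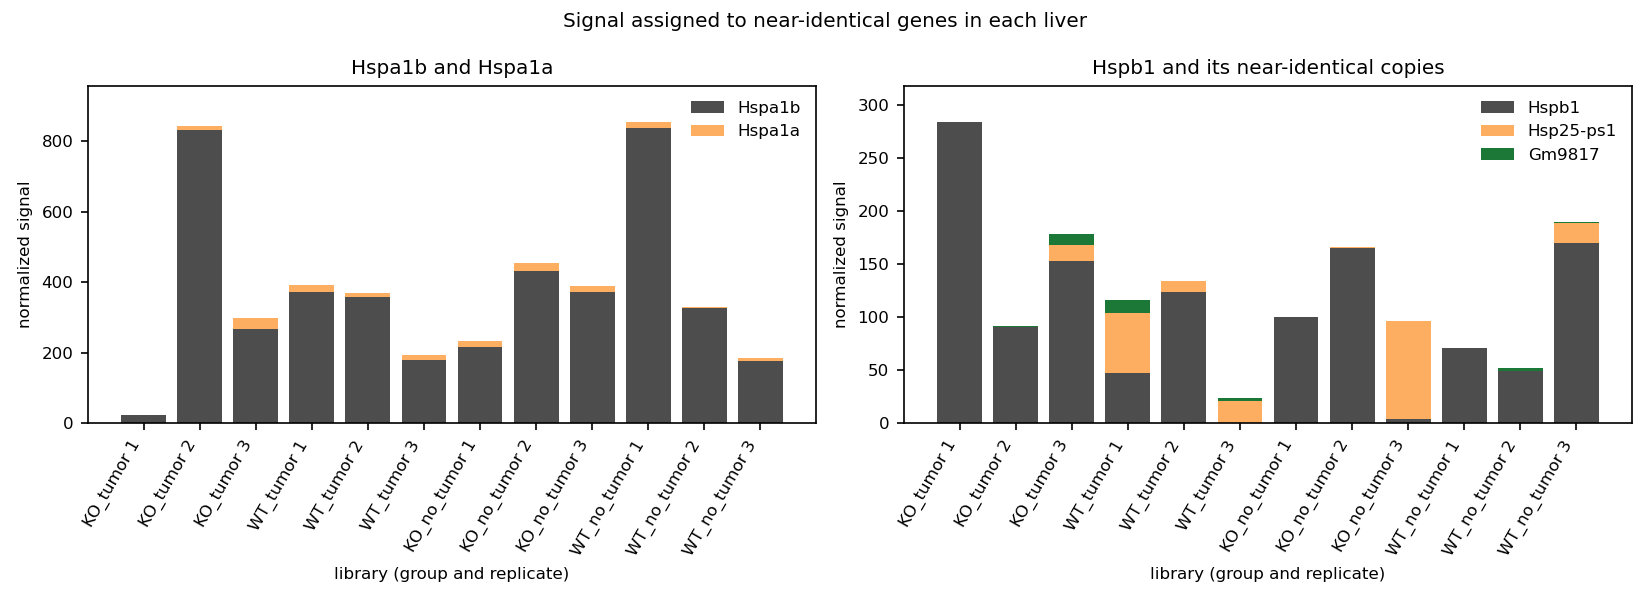
Normalized signal of Hspa1b and Hspa1a (left) and of Hspb1 and its near-identical copies Hsp25-ps1 and Gm9817 (right), stacked in each of the 12 libraries, whose labels give group and replicate. Most of the left bars is Hspa1b, and in WT tumour-bearing replicate 3 and KO tumour-free replicate 3 most of the right bar is Hsp25-ps1.

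Hsph1 encodes HSP110, which exchanges nucleotide on HSP70 and so drives client release. It had a normalized signal of 1267, 1945 and 987 in KO tumour-bearing, 2085, 1923 and 1361 in WT tumour-bearing, 1143, 1691 and 1580 in KO tumour-free, and 2043, 1984 and 2694 in WT tumour-free livers. All 3 KO tumour-free livers were below all 3 WT tumour-free livers; with a tumour the KO and WT ranges overlapped. The mean was 1471 ± 290.0 in KO tumour-free and 2240 ± 394 in WT tumour-free livers (SD, n = 3 each). The log2 fold change was -0.61 ± 0.26 in tumour-free livers (95% interval -1.18 to -0.05; unadjusted p = 0.0352, limma adjusted p = 1) and -0.39 ± 0.26 in tumour-bearing livers (-0.95 to 0.18; limma adjusted p = 0.483). Averaged over tumour states it was -0.50 ± 0.19 (unadjusted p = 0.0174, limma adjusted p = 0.422), the smallest unadjusted p of the 10 genes in any comparison. It stayed negative when any single library was left out, between -0.63 and -0.39. The difference with a tumour was -0.17 without KO tumour-bearing replicate 3 and -0.65 without replicate 2. Where libraries were weighted by their quality it was -0.70 ± 0.23 (limma adjusted p = 0.0678). Such weights raised the calls over all genes in that comparison from 4 to 1664, so low adjusted p-values were common there. The tumour effect on Hsph1 was -0.33 ± 0.26 in WT (adjusted p = 0.836) and -0.11 ± 0.26 in KO (limma adjusted p = 0.866). Hsph1 shares no 50-base word with another gene, so its reads are not split with a copy.

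Dnajb1 encodes HSP40, the DNAJ partner that delivers clients to HSP70 and starts its cycle. Its normalized signal was 503, 611 and 407 in KO tumour-bearing, 370, 512 and 388 in WT tumour-bearing, 397, 537 and 484 in KO tumour-free, and 580, 464 and 328 in WT tumour-free livers. The 12 values lay within a 1.86-fold range and all groups overlapped. The log2 fold changes in the 4 pairwise comparisons lay between -0.09 and 0.25, each with an SE of 0.27. For the tumour effect averaged over genotypes the estimate was 0.00 ± 0.19 (limma adjusted p = 0.997), and the 95% interval runs from 0.751 to 1.34 times the tumour-free level.

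Bag3 encodes a cochaperone that binds HSP70 and small heat shock proteins and passes clients to autophagy. Its normalized signal was 1203, 483 and 502 in KO tumour-bearing, 435, 707 and 317 in WT tumour-bearing, 318, 520 and 335 in KO tumour-free, and 590, 338 and 381 in WT tumour-free livers. KO tumour-bearing replicate 1 stood at 1203, well above the next highest liver at 707. Its tumour effect in KO was 0.80 ± 0.39 (95% interval -0.05 to 1.64; limma adjusted p = 0.407), and 0.27 ± 0.39 without the 2 libraries that stand apart (adjusted p = 0.948). In WT it was 0.12 ± 0.39 (limma adjusted p = 0.990).

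Hsp90aa1 encodes the inducible form of cytosolic HSP90, which matures kinases and steroid receptors. Its normalized signal was 6283, 8699 and 5717 in KO tumour-bearing, 8038, 9144 and 5385 in WT tumour-bearing, 5931, 7486 and 4761 in KO tumour-free, and 7532, 6322 and 13047 in WT tumour-free livers. WT tumour-free replicate 3 was the highest and KO tumour-free replicate 3 the lowest, and the groups overlapped in every comparison. The log2 fold change was -0.52 ± 0.29 in KO against WT tumour-free livers (95% interval -1.14 to 0.10; limma adjusted p = 1) and -0.11 ± 0.29 in KO against WT tumour-bearing livers (limma adjusted p = 0.869). Without WT tumour-free replicate 3 the tumour-free difference was -0.21. For the tumour it was 0.19 ± 0.29 in KO (adjusted p = 0.781) and -0.22 ± 0.29 in WT (limma adjusted p = 0.952).

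Hspb1 encodes the small heat shock protein known in the mouse as HSP25. Its normalized signal was 284, 91.1 and 153 in KO tumour-bearing, 47.7, 124 and 0 in WT tumour-bearing, 100, 165 and 4.29 in KO tumour-free, and 71.1, 49.4 and 170 in WT tumour-free livers. The largest fold changes of all 10 genes were those of Hspb1, 3.12 ± 1.54 in KO against WT tumour-bearing livers (limma adjusted p = 0.364) and -2.23 ± 1.54 for the tumour in WT (adjusted p = 0.784), both on the log2(signal + 1) scale, and both rest on the liver listed at 0. Without that liver, WT tumour-bearing replicate 3, they were 1.03 and -0.13. The same liver had 21 units of signal on Hsp25-ps1, and KO tumour-free replicate 3, with 4.29 on Hspb1, had 91.7 on Hsp25-ps1. WT tumour-bearing replicate 1, with 47.7 on Hspb1, had 56.1 on Hsp25-ps1 and 12.5 on Gm9817. In the remaining livers Hsp25-ps1 was at 18.5 or less. Summed with both copies, the signal was 284, 91.7 and 178 in KO tumour-bearing, 116, 134 and 23.2 in WT tumour-bearing, 100, 166 and 96.0 in KO tumour-free, and 71.1, 51.5 and 189 in WT tumour-free livers. The log2 fold changes of that sum were smaller, 1.21 ± 0.70 in KO against WT tumour-bearing livers (limma adjusted p = 0.424) and -0.30 ± 0.70 for the tumour in WT (adjusted p = 0.981). The interaction for Hspb1 was 4.06 ± 2.17 alone (limma adjusted p = 0.859) and 0.81 ± 1.0 summed with its copies (adjusted p = 0.882). Alone it was 1.97 without WT tumour-bearing replicate 3, and 2.10 ± 2.03 without the 2 libraries that stand apart (limma adjusted p = 0.995). No comparable split was seen for Hspa8, Hsp90aa1 and Hspd1, whose copies in the table reached at most 83.0, 20.2 and 16.4 units of signal in any liver.

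Hspd1 encodes HSP60, the barrel of the mitochondrial folding chamber. Its normalized signal was 6704, 5956 and 6189 in KO tumour-bearing, 5323, 6033 and 5280 in WT tumour-bearing, 6535, 6127 and 4979 in KO tumour-free, and 6119, 6974 and 6230 in WT tumour-free livers. It varied least of the 10 genes, 1.40-fold over all 12 livers. All 3 WT tumour-bearing livers were below all 3 WT tumour-free livers, with means of 5545 ± 423 in WT tumour-bearing and 6441 ± 465 in WT tumour-free livers (SD, n = 3 each). Its tumour effect in WT was -0.22 ± 0.17 on the log2 scale (95% interval -0.57 to 0.14; limma adjusted p = 0.827), and in KO it was 0.10 ± 0.17 (-0.25 to 0.46; adjusted p = 0.790).

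Hspe1 encodes HSP10, the lid of that chamber. Its normalized signal was 2882, 2117 and 1828 in KO tumour-bearing, 1248, 2317 and 1966 in WT tumour-bearing, 1431, 1798 and 1553 in KO tumour-free, and 1661, 1436 and 1801 in WT tumour-free livers. The 3 KO tumour-bearing livers lay above the 3 KO tumour-free livers, with 1828 as the lowest KO tumour-bearing and 1798 as the highest KO tumour-free value. On the log2 scale the tumour effect in KO was 0.49 ± 0.24 (95% interval -0.02 to 1.01; limma adjusted p = 0.401), and 0.31 without KO tumour-bearing replicate 1. In WT it was 0.13 ± 0.24 (limma adjusted p = 0.974). The Hspd1 and Hspe1 genes, at 55116994 to 55127403 on the minus strand and 55127291 to 55130467 on the plus strand of chromosome 1 in the deposited mm39 coordinates, start head to head and overlap by 113 bases. The element printed above lies in the windows of both. Across the 12 livers their signals had Pearson's r = 0.23 (permutation p = 0.479, adjusted p = 0.824), Spearman's rho = 0.00 (permutation p = 1), r = 0.25 without the 2 livers farthest from the Hspd1 median and r = 0.24 within groups.

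**Figure D4:**
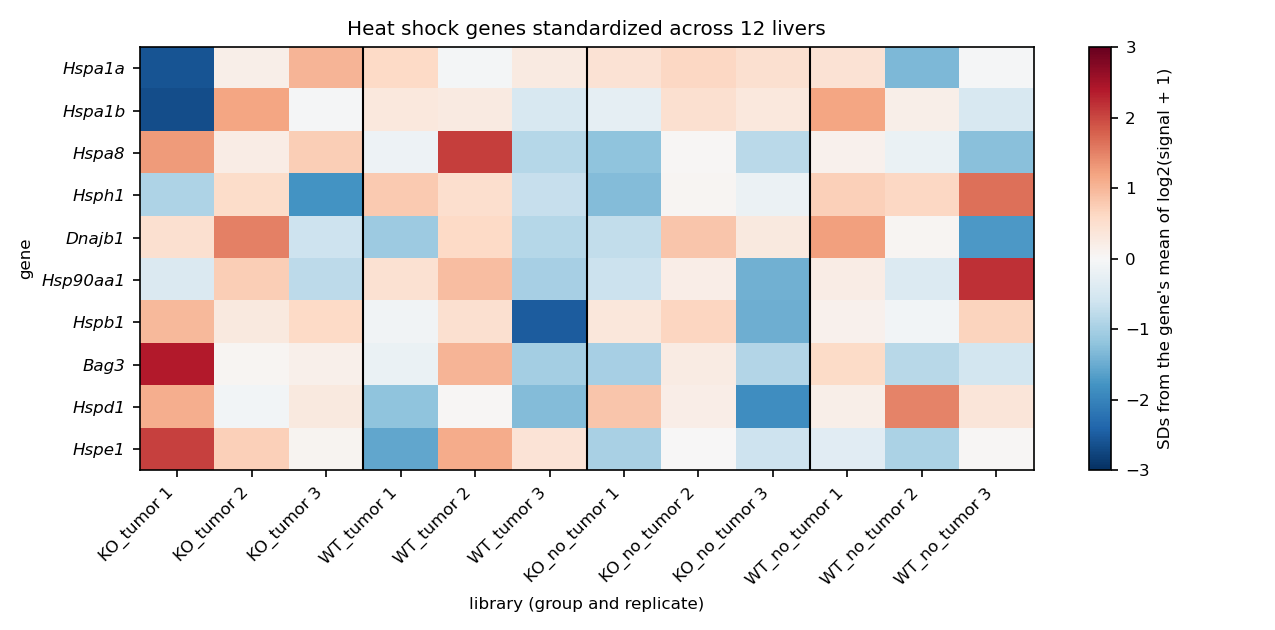
Each heat shock gene (rows) in each of the 12 libraries (columns, by group and replicate), as SDs from the gene's mean of log2(signal + 1). Red is above and blue below the mean; KO tumour-bearing replicate 1 is high for Bag3 and Hspe1 and low for Hspa1a (-2.59) and Hspa1b (-2.67).

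No single liver was high or low for all genes. The highest values of the 10 genes fell in 7 livers and the lowest in 6. KO tumour-bearing replicate 1 had the highest Hspb1, Bag3 and Hspe1 and the lowest Hspa1a and Hspa1b. WT tumour-free replicate 3 had the highest Hsph1 and Hsp90aa1 and the lowest Hspa8 and Dnajb1.

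Across the 12 livers, the 45 pairs of heat shock genes had Pearson's r from -0.54 to 0.82 with a median of 0.13 on the log2(signal + 1) scale; 28 were positive and 17 negative. The permutations moved all 12 livers regardless of group, so a group or library difference that 2 genes share can also lower these p-values. Values of r within groups carry no p. Pairs of other genes were not counted, so the counts of pairs have no share over all genes beside them. After Benjamini-Hochberg adjustment over the 45 pairs, 0 passed 0.05 by permutation of Pearson's r (6 did unadjusted) and 1 by permutation of Spearman's rho. That pair was Hspa8 and Bag3, with r = 0.82 (permutation p = 0.00123, adjusted p = 0.0553) and rho = 0.86 (permutation p = 0.00077, adjusted p = 0.0346). Its r was 0.79 without the 2 livers farthest from the Hspa8 median and 0.78 within groups. Hsph1 and Hsp90aa1 had r = 0.76 (permutation p = 0.004, adjusted p = 0.0886) and rho = 0.76 (permutation adjusted p = 0.143), with r = 0.80 without the 2 farthest livers and 0.73 within groups. Hspa1a and Hspa1b had r = 0.70 (permutation adjusted p = 0.288) and rho = 0.38 (adjusted p = 0.621), and r fell to 0.06 without the 2 farthest livers, so that relation rests on them. Bag3 and Hspe1 (r = 0.74, permutation adjusted p = 0.0886; rho = 0.52, adjusted p = 0.44) and Hspb1 and Hspd1 (r = 0.72, permutation adjusted p = 0.114; rho = 0.64, adjusted p = 0.258) fell to 0.27 and 0.29 in the same way.

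To name the genes whose pattern was most like theirs, 11132 named genes with a mean signal of at least 50 were ranked by r with the mean of the standardized values over the 12 livers. For the 8 cytosolic genes, those near the top of the ranking included Sem1 (r = 0.81), Atg4b (0.79), Des (0.77), Shtn1 (0.77) and Hnrnpul2 (0.76). The 8 genes themselves had r of 0.11 to 0.66 with their own mean. For the 2 mitochondrial genes the nearest were Riox2 (r = 0.95), Gpatch2l (0.95), Myh11 (0.93), Rpp40 (0.92), Prr13 (0.90) and Prmt3 (0.90). Hspd1 and Hspe1 each had r of 0.78 with their mean, a value fixed by the r of 0.23 between them. The genes named are the top of a ranking over 12 livers that share the library differences given above, and carry no test.

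Of the other genes of the pathway, 78 were listed in 9 groups (heat shock factors and regulators, other HSP70, DNAJ and small heat shock proteins, HSP90 with its cochaperones, HSP70 cochaperones, mitochondrial chaperones and proteases, the TRiC chaperonin and other HSF1 targets). Of these, 74 were tested and 0 were called by limma in any of the 7 comparisons. At an unadjusted p under 0.05 there were 5 in the tumour effect in WT (8.67% of all genes), 12 in the tumour effect in KO (12.7%), 0 in KO against WT without a tumour (1.93%) and 19 with one (14.4%). Hsf1, the factor itself, averaged 287 ± 278 in KO tumour-bearing, 111 ± 22.7 in WT tumour-bearing, 103 ± 23.7 in KO tumour-free and 94.1 ± 35.2 in WT tumour-free livers (SD, n = 3 each), and its KO tumour-bearing mean rests on 607 in the shallow replicate 1, with 98.9 and 155 in the other 2. Hsp90ab1, the constitutive cytosolic HSP90, averaged 10646 ± 2850 in KO tumour-bearing, 6978 ± 2434 in WT tumour-bearing, 7211 ± 988 in KO tumour-free and 6740 ± 857 in WT tumour-free livers. Its log2 difference between KO and WT tumour-bearing livers was 0.63 ± 0.25 (limma adjusted p = 0.282), with 0.42 without KO tumour-bearing replicate 1 and, under library weights, 0.62 (limma adjusted p = 0.0342). With those weights 1664 of 17380 genes were called in that comparison, beside 4 without them. Hspa9, the mitochondrial HSP70, had a log2 difference of 0.43 ± 0.20 there (limma adjusted p = 0.342), in a list of 12 mitochondrial chaperones and proteases of which 11 were positive, 6 passed an unadjusted p under 0.05 (14.4% of all genes did) and 0 were called; the median was 0.55, beside -0.12 over all genes. Without KO tumour-bearing replicate 1, Hspa9 was at 0.28, 10 of the 12 were positive, 3 passed an unadjusted p under 0.05 and the median was 0.32. All 8 TRiC subunits, which fold actin and tubulin, were also positive there, with a median of 0.37, 2 at an unadjusted p under 0.05 and 0 called; without that library the median was 0.30, with 0 at that limit. In the tumour effect in WT, 0 of 13 other HSF1 targets were called and 5 were positive. An unadjusted limma p under 0.05 was reached by 4 of the 13 (8.67% of all genes). The 2 smallest p-values among them were those of Chordc1 and Ier5. Chordc1, an HSP90 cochaperone, was at -0.62 ± 0.21 (limma adjusted p = 0.334). Ier5, a regulator of HSF1, was at 0.91 ± 0.40 (limma adjusted p = 0.543).

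Chaperones of the endoplasmic reticulum, which answer to the unfolded protein response and not to HSF1 alone, form a separate list. Of 14 listed, 2 were called higher in WT tumour-bearing than in WT tumour-free livers (0.679% of all genes were called) and 0 lower, 13 were positive, and the median log2 fold change was 0.70. Hspa5, the HSP70 protein of the endoplasmic reticulum, had a normalized signal of 16554, 17111 and 14421 in WT tumour-bearing and 7217, 5552 and 8997 in WT tumour-free livers. It rose by 1.17 ± 0.22 on the log2 scale (limma adjusted p = 0.0293). Sdf2l1, a cofactor of Hspa5 in that compartment, rose by 2.12 ± 0.39 (limma adjusted p = 0.0238). In the tumour effect in WT, 11 of the 14 passed an unadjusted limma p under 0.05 (8.67% of all genes). In KO tumour-bearing against KO tumour-free livers 0 were called, 5 passed unadjusted (12.7%) and the median was 0.27. For the interaction 0 were called, 3 passed unadjusted (4.7%), 1 of 14 was positive and the median was -0.43. In KO against WT tumour-bearing livers 0 were called, 7 passed unadjusted (14.4%) and 1 of 14 was positive. The median there was -0.45, beside -0.12 over all genes. A difference between genotypes was thus not shown at the threshold for any of the 14. Averaged over genotypes, Hspa5 (0.92 ± 0.16, limma adjusted p = 0.0138), Manf (1.20 ± 0.23, limma adjusted p = 0.0282) and Creld2 (1.45 ± 0.31, limma adjusted p = 0.0418) rose with a tumour (1.06% of all genes were called). Markers of other liver cells moved in the same comparisons. In WT, 2 of 7 stellate cell and fibroblast markers rose, Col3a1 by 1.5 ± 0.25 (limma adjusted p = 0.015) and Dcn by 1.16 ± 0.20 (limma adjusted p = 0.0184); their summed signal was 18320 to 22334 in WT tumour-bearing and 10458 to 13133 in WT tumour-free livers, and 13901 to 17934 in KO tumour-bearing and 10995 to 12730 in KO tumour-free livers. The erythroid marker Alas2 (1.60 ± 0.33, limma adjusted p = 0.0422) and the monocyte marker Ccr2 (1.78 ± 0.37, limma adjusted p = 0.0448) rose there too, 1 of 7 tested erythroid and 1 of 10 Kupffer cell and monocyte markers. The erythroid sum was 6315 to 10605 in WT tumour-bearing and 2168 to 4266 in WT tumour-free livers, and the Kupffer cell and monocyte sum 12433 to 19793 in WT tumour-bearing and 7077 to 18266 in WT tumour-free livers. Averaged over genotypes, Dcn, Pdgfrb, Clec4g, Alas2 and Krt18 rose, by 0.90 to 1.39 on the log2 scale. Dcn and Pdgfrb were 2 of 7 stellate cell and fibroblast markers, and 6 of those 7 were positive. Clec4g was 1 of 7 sinusoidal endothelium markers and Alas2 1 of 7 tested erythroid markers, all positive. Krt18 was 1 of 7 markers listed for mammary epithelium, of which only 4 were positive. Krt5 and Krt14 of that list were at 11.5 to 21.4 and 30.0 to 55.3 over the 12 livers. The part of these cells in the chaperone values was not tested. These calls were lost when some single libraries were left out, which also leaves fewer livers in a group. In WT, the limma adjusted p reached 0.129 for Sdf2l1 and 0.135 for Hspa5 over the alternatives. Their log2 fold changes stayed at 1.84 to 2.60 and 0.99 to 1.34. Both calls were lost without WT tumour-bearing replicate 1 or 3 or WT tumour-free replicate 1 or 2. The Hspa5 call was also lost without WT tumour-bearing replicate 2. Over all genes, the calls in WT fell from 118 to 11 without WT tumour-bearing replicate 3. Averaged over genotypes, the Hspa5 call was lost without KO tumour-free replicate 1 (adjusted p = 0.0553), that of Manf without any of 6 single libraries (adjusted p up to 0.083) and that of Creld2 without any of 9 (up to 0.125). The difference in tumour response between the cytosolic and the endoplasmic reticulum lists was not tested. The transcription of immediate early genes starts within minutes of handling or stress. Of 13 listed, 0 were called for the tumour in WT (0.679% of all genes), in KO (0.0%) or averaged (1.06%). In WT 12 were positive with a median of 1.30, and 3 passed an unadjusted limma p under 0.05 (8.67%). In KO 10 were positive with a median of 0.85, and 1 passed that limit (12.7%). Averaged over genotypes all 13 were positive with a median of 1.0, and 5 passed that limit (15.1%). Fos was at 2.16 ± 0.86 in WT (limma adjusted p = 0.454) and 1.58 ± 0.86 in KO (limma adjusted p = 0.434).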

How the data were processed

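RNA was measured in 12 livers, 4 groups of 3, grouped by genotype and treatment in the labels. Ribosomal RNA was removed from total RNA before Illumina library preparation, per the labels' protocols. The deposited values are a normalized signal: estimated reads per gene that the authors divided by a DESeq2 size factor, per the deposited table's naming. STAR 2.7.8a, Partek, DESeq2 and build mm39 are named in the submitters' processing notes; annotation, filters and strandedness were not given in the sources used here. Only 77.9% to 85.0% of values up to 20 reads were whole reads within 0.01 reads, so no count model was used. Depth was estimated from the value of 1 read in each library; the number of libraries limits the precision.

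Genes at 10 or more in at least 3 libraries were tested on log2(signal + 1) with limma 3.58.1 in R 4.3.3 (lmFit, eBayes with trend), all 12 libraries in 1 fit with no block, two-sided, with Benjamini-Hochberg adjustment over 17380 genes in each of 7 comparisons. A fold change on this scale can be too small for low genes, and where a library is at or near 0 it depends on the added 1. For Hspb1 in KO against WT tumour-bearing livers the log2 value was 3.12, and 1.99 with 10 added instead. The fit was tested on simulated data. Near-identical copies were table genes sharing at least 10% of a gene's 50-base transcript words (GENCODE M21). Correlations used 100000 permutations. All 10 genes were described; of each other list, called genes (at most 4 by smallest p), or else the 1 or 2 of smallest p in the tumour effect in WT, could be named. Hsf1, Hsp90ab1, Hspa9 and Fos were named besides, after their values were seen. The members, lists and alternatives were chosen with earlier results of these data known. The 24 alternatives covered pseudocount, filter, scaling, weights, a replicate block, libraries and copies left out or summed. Promoter sequences are RefSeq's in GRCm38.p6, and their coordinates are not those of the mm39 table. One gene of the pattern ranking is not reported here.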

Additional observations from a re-analysis of the deposited data

How the results depend on the processing

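The count of heat shock genes past the threshold was 0 in every comparison for which each of the 24 alternatives was run, with all 7 for 23 of them and the 4 pairwise ones for fitting only the groups compared. Summing genes with their near-identical copies was chosen after seeing the data. The smallest adjusted p of a heat shock gene under any alternative was 0.0678. Of 1622 fold changes recomputed, 99 (6.1%) changed sign, in 37 of 70 gene and comparison pairs, with neither value past the threshold; 12 of them arose without KO tumour-bearing replicate 1, 12 without both libraries that stand apart, 11 with library weights, 5 with quantile normalization and 3 with rescaling by library total. The cause was not tested. Rescaling moved the median of all genes by less than 0.1, and quantile normalization moved it from -0.12 to 0.00 in KO against WT tumour-bearing livers, a shift beside which the values there are to be read. The labels state no pairing of the livers by replicate number. The deviations of 18 same-numbered pairs correlated at -0.09 to 0.10, which cannot exclude a pairing in groups of 3. These numbers follow the sample titles, and the deposited column names number the KO tumour-free livers differently. With the replicate block 0 of the 10 heat shock genes were called. Over all genes, the count of calls moved more: it was 118 for the tumour in WT, 11 without WT tumour-bearing replicate 3 and 510 with library weights; 0 and 14 (library weights) for the tumour in KO; 1, 0 (without KO tumour-free replicate 2) and 2 (library weights) for KO against WT without a tumour; 4, 0 (fitting only the groups compared), 13 (replicate block) and 1664 (library weights) with a tumour; 0 and 1 (library weights) for the interaction; 185, 47 (without KO tumour-free replicate 1) and 856 (library weights) for the averaged tumour effect; and 2, 1 (protein-coding genes alone) and 139 (library weights) for the averaged KO effect. Of the calls among chaperones of the endoplasmic reticulum, those in WT were lost under 4 (Sdf2l1) and 6 (Hspa5) of 24 alternatives, and the averaged ones under 1 (Hspa5), 7 (Manf) and 11 (Creld2) of 23. Hspa1a and, in part, Hspb1 lay near the level of a few reads, where depth limits the fold changes most.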
